A study of Mus musculus with 22 samples.

Results

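The pair described here is 1 library of full-grown oocytes labelled Dnmt3l knockout and 1 library of its control, 2 of the 22 RNA-seq libraries of a mouse study of histone and DNA methylation in oocytes and embryos. They were read by fold only, over the 4530 of 22592 listed genes with at least 10 FPKM (fragments per kilobase of transcript, scaled to the mapped fragments of the library) in either of the 2 libraries. The rule cut through a dense range of levels: Tctn2 was the last gene inside, with 10.0022 FPKM in its higher library, and Ccdc127 the first outside, with 9.99996. Both libraries came from oocytes at the germinal vesicle stage, taken from 8-week-old females 48 h after priming with PMSG, a gonadotropin that makes follicles grow. The genotype labels read Dnmt3l_Con and Dnmt3l_KO and give neither the allele nor the strain, nor whether control females were wild type or heterozygous. Each label stands for 1 library, and the column names mark both as merged, so each may join several runs or collections whose spread can no longer be seen. As the only measure of spread between like libraries, the pair was read beside the 2 control libraries of full-grown oocytes from the Setd2 experiment (labelled Setd2_Con, of the same age and hour after PMSG), and beside the 2 libraries labelled Setd2_KO, which the study calls a maternal knockout without naming the Cre line in the sources used here. The 2 experiments were deposited in tables that were normalized separately.

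DNMT3L is a catalytically inactive member of the DNA methyltransferase family that binds DNMT3A and stimulates it. In growing oocytes the DNMT3A-DNMT3L complex methylates transcribed gene bodies and the maternally methylated imprinted regions, and its access to chromatin is steered by histone H3 tails, which DNMT3L reads at unmethylated lysine 4 and DNMT3A at methylated lysine 36. Full-grown oocytes are close to transcriptional silence and live on stored messages, so their RNA reflects both earlier synthesis and later decay. Oocytes that lack DNMT3L are known to mature and to be fertilized, while embryos from such mothers die in mid-gestation with lost maternal imprints.

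Promoter windows are shown for 4 genes on which the comparison turns, with every CpG, the dinucleotide that DNA methylation targets, in capitals. Mest, an alpha/beta hydrolase gene, stands for the genes imprinted from a region methylated in the oocyte, Igf2bp3, an RNA-binding protein gene, for the genes higher in the library labelled knockout, and Inha, the inhibin alpha subunit gene, and Hsd3b1, a steroid dehydrogenase gene, for the genes lower in it. Each window runs 5′ to 3′ on the gene's strand from 250 bases before to 50 bases after a RefSeq start (GRCm38.p6), for Mest at chr6:30737800-30738099 (plus strand, the first of 3 starts listed), for Igf2bp3 at chr6:49214905-49215204 (minus strand), for Inha at chr1:75507359-75507658 (plus strand) and for Hsd3b1 at chr3:98859745-98860044 (minus strand).
Mest: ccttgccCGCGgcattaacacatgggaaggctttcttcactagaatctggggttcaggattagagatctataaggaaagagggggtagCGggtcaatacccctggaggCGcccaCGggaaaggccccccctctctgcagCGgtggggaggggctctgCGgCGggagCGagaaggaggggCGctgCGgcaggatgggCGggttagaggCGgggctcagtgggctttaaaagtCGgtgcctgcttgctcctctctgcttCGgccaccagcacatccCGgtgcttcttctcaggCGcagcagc
Igf2bp3: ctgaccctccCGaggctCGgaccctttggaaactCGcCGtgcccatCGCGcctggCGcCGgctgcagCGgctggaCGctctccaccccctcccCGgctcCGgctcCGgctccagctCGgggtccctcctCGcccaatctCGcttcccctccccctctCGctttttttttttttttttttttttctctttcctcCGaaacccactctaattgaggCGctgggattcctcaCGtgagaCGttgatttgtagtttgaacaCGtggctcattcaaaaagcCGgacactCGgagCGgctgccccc
Inha: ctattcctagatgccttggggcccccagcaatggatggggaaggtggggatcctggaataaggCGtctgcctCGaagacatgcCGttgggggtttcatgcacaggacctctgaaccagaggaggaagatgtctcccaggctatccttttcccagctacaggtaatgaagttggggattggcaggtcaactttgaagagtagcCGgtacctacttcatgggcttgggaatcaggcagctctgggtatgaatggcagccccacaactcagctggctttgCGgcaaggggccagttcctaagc
Hsd3b1: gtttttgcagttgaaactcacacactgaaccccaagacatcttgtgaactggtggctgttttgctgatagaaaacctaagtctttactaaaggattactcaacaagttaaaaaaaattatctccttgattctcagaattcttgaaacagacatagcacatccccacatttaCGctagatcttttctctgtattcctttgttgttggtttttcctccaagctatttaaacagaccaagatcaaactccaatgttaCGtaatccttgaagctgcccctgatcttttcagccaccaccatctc
The Mest window held 17 CpG and the Igf2bp3 window 25, against 5 in Inha and 2 in Hsd3b1. Over the 3676 of 4530 genes with a RefSeq window, the median was 21 CpG and 84.3% had at least 10. Of the 26 genes lower by 2-fold or more, 21 had a window, with a median of 21 CpG and 66.7% with at least 10. The few CpG of Inha and Hsd3b1 are thus not a trait of the lower genes as a set. Only 20 of the 30 genes higher by 2-fold or more had a window (66.7%), under the 80% needed, so the same check is void for them. DNA methylation itself was not analysed here.

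The libraries held an estimated 8.10 M fragments (control) and 9.81 M (labelled knockout), against 9.26 M to 22.5 M in the 4 Setd2 libraries. At 10 FPKM a transcript of median length corresponded to about 126 and 153 fragments, a counting error of 8.90% and 8.09%, so that counting alone is small beside a 2-fold difference at that level. At least 1 FPKM was listed for 9276 genes in the control and 9270 in the library labelled knockout. All 10 oocyte markers were at 10 FPKM or more in each of the 6 libraries. Dnmt3l itself was 31.7 FPKM in the control library and 25 in the library labelled knockout, a log2 difference of -0.33, and 107 and 118 FPKM in the Setd2 controls. The Dnmt3l transcript was thus present in both libraries of the pair and differed less between them than either differed from the Setd2 controls. A value for a whole gene does not show whether the transcript still encodes protein, so this level checks the genotype label in neither direction, and the directions below are those between the library labelled knockout and the library labelled control. Setd2, the gene of the enzyme that trimethylates H3K36, deleted in the other experiment, was 3.6 and 3.52 FPKM in the pair, 4.75 and 4.35 in the Setd2 controls and 0.968 and 0.927 in the Setd2 knockouts.

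The 2 libraries of the pair were nearly as alike as 2 control replicates. On the scale of log2(FPKM + 1), 30 genes were at least 2-fold higher in the library labelled knockout (0.662% of 4530) and 26 at least 2-fold lower (0.574%), together 56 (1.24%). Between the 2 Setd2 control replicates 53 of 5093 genes lay as far apart (1.04%; 35 higher in replicate 2, 0.687%, and 18 lower, 0.353%, which turned to 19 and 26 under both rescalings), and between the 2 Setd2 knockout replicates 52 of 4647 (1.12%; 42 higher, 0.904%, and 10 lower, 0.215%). The share of genes past 2-fold in the pair was therefore near the share between libraries of like genotype. The log2 differences of the pair had a median of -0.01, an SD over genes of 0.36 and a middle 95% from -0.67 to 0.73. The replicate differences had an SD over genes of 0.32 in the Setd2 controls, with a middle 95% from -0.47 to 0.70, and 0.34 in the Setd2 knockouts. Spearman's rho over genes, a description only, was 0.963 in the pair and 0.972 between the Setd2 control replicates.

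**Figure D1:**
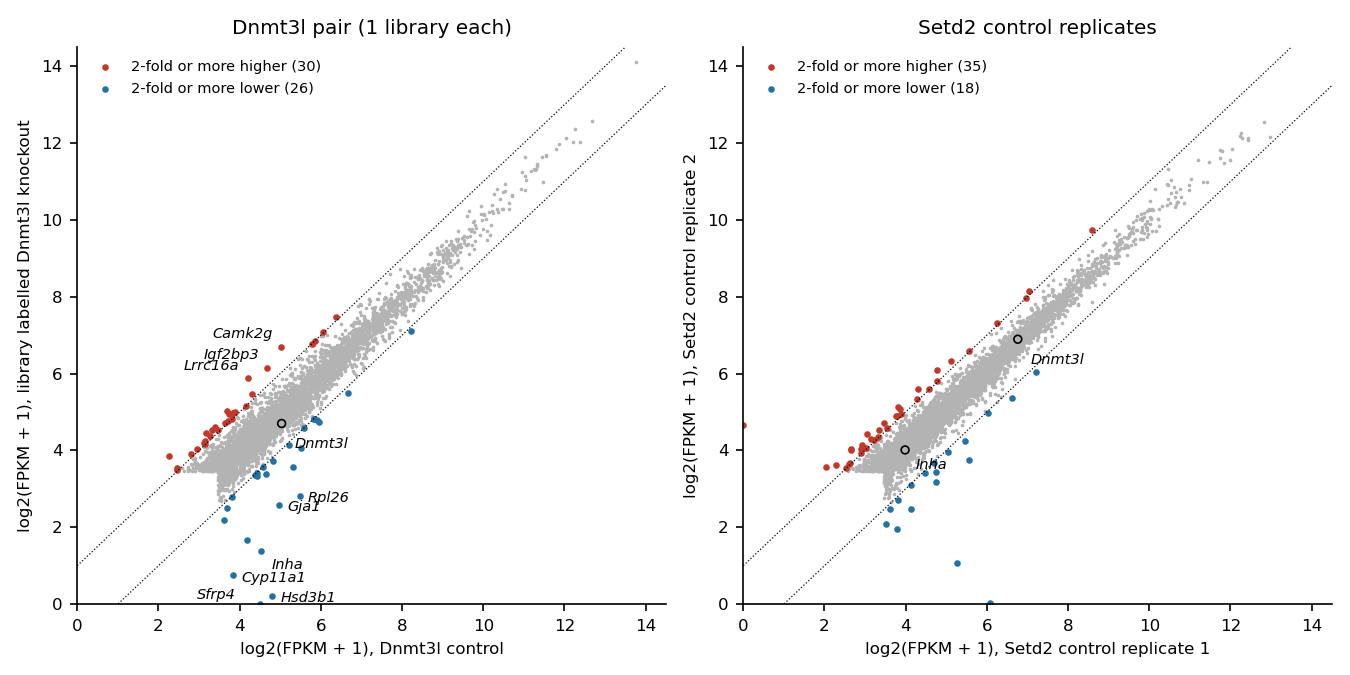
Each point is a gene with at least 10 FPKM in either library, plotted as log2(FPKM + 1), for the Dnmt3l pair at left and the 2 Setd2 control replicates at right; dotted lines mark 2-fold and circled genes lie within it. The 2 clouds are of like width, with 30 higher and 26 lower genes in the pair and 35 and 18 between the replicates (19 and 26 after rescaling), and the far points of the pair are mostly lower ones.

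Past 4-fold the pair had 7 genes, all lower in the library labelled knockout, where the Setd2 controls had 3 and the Setd2 knockouts 5. All 7 passed 10 FPKM only through the control library, where they are high. The most extreme single differences were larger between the Setd2 control replicates (-6.05 and 4.67) than in the pair (-4.58 and 1.69). Over the 4135 genes that passed 10 FPKM in both the pair and the Setd2 controls, 36 lay past 2-fold in the pair (0.871%) and 24 between the control replicates (0.58%). By level, genes at 10 to 30 FPKM lay past 2-fold in 1.47% of cases in the pair and 1.38% between the Setd2 controls, those at 30 to 100 FPKM in 1.26% and 0.926%, and those at 100 FPKM or more in 0.716% and 0.481%. Below the limit of the rule, at 3 to 10 FPKM, the share was 2.48% in the pair, 1.73% between the Setd2 controls and 2.48% between the Setd2 knockouts. In the 2 highest bands the share of the pair lay above both replicate shares, and in the band from 10 to 30 FPKM it lay between them. No test compares these shares, because each pair of libraries gives only 1 value.

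**Figure D2:**
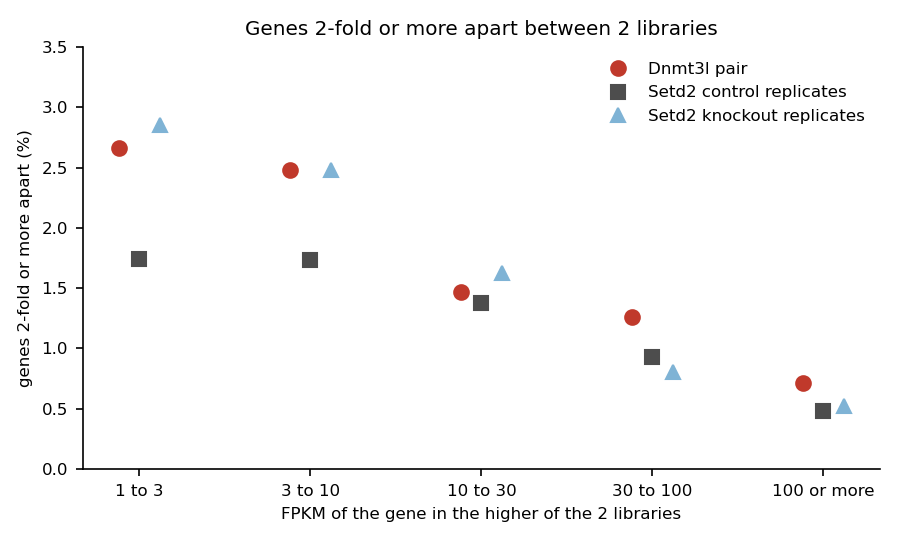
The share of genes at least 2-fold apart (%, vertical axis) is plotted against the level of the gene in the higher library (FPKM bands, horizontal axis) for the Dnmt3l pair and for both sets of Setd2 replicates. The share falls with level in all 3, in the pair from 2.66% at 1 to 3 FPKM to 0.716% at 100 FPKM or more.

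The 30 higher genes were led by Camk2g, Lrrc16a, Bet1l and Igf2bp3. Camk2g, which encodes the gamma subunit of calcium/calmodulin-dependent kinase II, the kinase through which calcium waves act at egg activation, was 31.2 FPKM in the control and 103 in the library labelled knockout (log2 difference 1.69). It was 42.5 and 57.5 FPKM in the Setd2 controls, so the value under the knockout label was the highest of these 4 libraries but less than 2-fold above the nearest. Lrrc16a, the gene of the actin capping protein regulator CARMIL1, was 17.5 and 58.1 FPKM (1.68), with 15.3 and 22.6 in the Setd2 controls. Igf2bp3, which encodes an RNA-binding protein of maternal messages, was 24.6 and 70.1 FPKM (1.48), with 18.1 and 22.2 in the Setd2 controls. For both genes the library labelled knockout lay at least 2-fold above all 3 control libraries, which did not spread as far among themselves.

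Several further genes lay at least 2-fold above all 3 controls at lower levels. Sass6, a centriole cartwheel gene, was 9.56 FPKM in the control and 23.4 under the knockout label (1.21), against 3.28 and 3.30 in the Setd2 controls, so that the 3 controls were themselves further apart than the pair. Rlim, an X-linked ubiquitin ligase gene, was 13.3 and 30.3 FPKM (1.13), against 11.4 and 13.5. Efna5, an ephrin gene, Cir1, a corepressor gene, and Ing5, a chromatin reader gene, did so too, with log2 differences of 1.15, 1.11 and 1.08, and the 3 controls of Efna5 (13.2, 5.05 and 5.31 FPKM) were again further apart than its pair. Defb41, a beta-defensin gene, was 12 and 31.6 FPKM (1.33), but its 2 Setd2 control values, 12.9 and 2.86 FPKM, were further apart than the pair.

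Other higher genes lay less than 2-fold beyond the nearest control or inside the range of the controls. Mcm10, a replication initiation gene, was 12.3 FPKM in the control and 30.0 in the library labelled knockout (1.22), and the Setd2 controls were at 27.9 and 35.1 FPKM, so that the Dnmt3l control was the low library. Eprs, a tRNA synthetase gene, and Gpatch1, a splicing-related gene, were likewise nearer to the Setd2 controls under the knockout label (19.7 FPKM against 16.1 and 18.5 for Eprs, 14.1 against 11.1 and 13.1 for Gpatch1) than in the Dnmt3l control (8.63 and 5.93 FPKM). Bet1l, a vesicle transport gene, was 3.77 and 13.4 FPKM (1.59) and Poll, DNA polymerase lambda, 7.94 and 20.8 FPKM (1.28). Both were highest under the knockout label among the 4 libraries, but less than 2-fold above the nearest of them.

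The 26 lower genes were led by genes of granulosa and cumulus cells, the somatic cells that surround the oocyte. Hsd3b1, a dehydrogenase of progesterone synthesis, was 26.7 FPKM in the control and 0.162 in the library labelled knockout (log2 difference -4.58), with 4.95 and 4.03 in the Setd2 controls. Inha was 22.1 and 1.63 FPKM (-3.14), with 14.8 and 15.1 in the Setd2 controls. Cyp11a1, the enzyme that starts steroid synthesis from cholesterol, was 13.3 and 0.680 FPKM (-3.09), with 3.20 and 2.37. In all 3 genes the library labelled knockout was the lowest of the 4 and the Dnmt3l control the highest. Gja1, the connexin 43 of granulosa gap junctions, was 30.2 and 5.01 FPKM (-2.38), but the Setd2 controls were lower still, at 1.15 and 1.5 FPKM. Sfrp4, a secreted Wnt antagonist gene that is not on the marker list, was 21.5 and 0.00818 FPKM (-4.48), with 2.34 and 1.07; the value under the knockout label corresponded to less than 1 fragment.

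The granulosa and cumulus list differed in the same direction in its summed level, though not in every member. It had 27 measured genes, and their summed level was 125 FPKM in the Dnmt3l control, 38.9 in the library labelled knockout, 49.1 and 48.1 in the Setd2 controls and 43.3 and 37.6 in the Setd2 knockouts. The Dnmt3l control was the high library. Without Cyp19a1, Nr5a2 and Fshr, which lay the other way and were set aside after their values were seen, the sums were 105 FPKM in the control, 9.95 in the library labelled knockout, 29.4 and 30.8 in the Setd2 controls and 3.40 and 2.60 in the Setd2 knockouts. Setting aside members that lay the other way widens the difference by construction, so these sums add no evidence for it. Foxl2, Has2, Ptgs2, Tnfaip6 and Igfbp5, all under 1 FPKM in the pair, were also higher under the knockout label. Of the 10 list members with at least 1 FPKM in either library of the pair, 8 were lower under the knockout label, all 8 past 2-fold, and none was past 2-fold higher. Cyp11a1, Hsd3b1, Inhba, Lhcgr, Hsd17b1 and Bex4 were under 1 FPKM in the library labelled knockout and entered this count only through the control. Among all genes, 41 of 2521 at 1 to 3 FPKM and 34 of 2657 at 3 to 10 FPKM were past 2-fold lower. The control was above both Setd2 controls in 9 of the 10, a count without a share over all genes beside it. Members that entered only through the control were chosen for a high control, so this count adds no evidence that it was high. In all 5 members passed 10 FPKM, and 4 of them did so only through the control library, so their differences are part of how they were chosen. The other members past 2-fold were Lhcgr, the luteinizing hormone receptor (2.60 and 0.0379 FPKM), Bex4 (3.53 and 0.767), Hsd17b1 (1.89 and 0.240) and Inhba, an activin subunit gene, at 1.17 FPKM in the control and listed at 0 under the knockout label. Cyp19a1, the aromatase of granulosa cells, was 16.0 and 22.1 FPKM, and Nr5a2, an orphan nuclear receptor of these cells, 3.88 and 5.91, the opposite direction. Fshr, the follicle-stimulating hormone receptor, was 0.103 and 0.991 FPKM, and Amh, Star and Wt1 were listed at 0 under the knockout label and at 0.151, 0.562 and 0.307 FPKM in the control. Bulk oocyte libraries do not show which cells the RNA of these genes came from. Fewer attached somatic cells and less RNA per such cell cannot be told apart in them, and the part of attached cells in these results was not tested. Markers of blood, immune and stromal cells summed to 7.23 to 13.2 FPKM in the 6 libraries and none reached 10 FPKM.

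Lower genes outside that list came in different positions against the Setd2 controls. Rpl26, a ribosomal protein gene whose processed pseudogenes can take reads, was 43.4 and 6.05 FPKM (-2.66), against 69.6 and 75.8 in the Setd2 controls. Mea1, a gene known from male germ cells, was 38.8 and 10.8 FPKM (-1.75), against 76.3 and 42.6. Eif4e1b, an oocyte form of the cap-binding protein, was 44.9 and 15.6 FPKM (-1.47), against 74.7 and 37.3, a replicate difference of -0.98. Adm2, an adrenomedullin family peptide gene, was 101 and 44.5 FPKM (-1.16), against 156 and 159. In these 4 genes, in Ccdc124 (61.5 and 25.6 FPKM, -1.23), a ribosome-associated factor, and in Rrp15 (27.1 and 12.3, -1.08), a ribosome biogenesis gene, the library labelled knockout lay at least 2-fold below all 3 controls. Bri3, a small membrane protein gene, was 58.5 and 26.6 FPKM (-1.11), against 48.2 and 38.3, the lowest of the 4 but within 2-fold of the nearest.

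In a second group the Dnmt3l control was the library that stood apart. Gm2a, the GM2 ganglioside activator gene, was 17.3 FPKM in the control and 2.18 under the knockout label (-2.52), against 1.21 and 1.33 in the Setd2 controls. Pam, a peptide-amidating enzyme gene, was 11.2 and 3.57 FPKM (-1.41), against 0.0312 and 0.0248. Mgst1, a glutathione transferase gene, was 11.8 and 4.69 FPKM (-1.17), against 2.63 and 2.03. These 3 genes were high in the control and, to a lesser degree, in the library labelled knockout, compared with both Setd2 controls. Atp6v0c-ps2, a pseudogene that shares sequence with its parent gene, was 297 and 137 FPKM (-1.11), against 6.92 and 0.000621. The part of shared reads in its level was not tested.

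**Figure D3:**
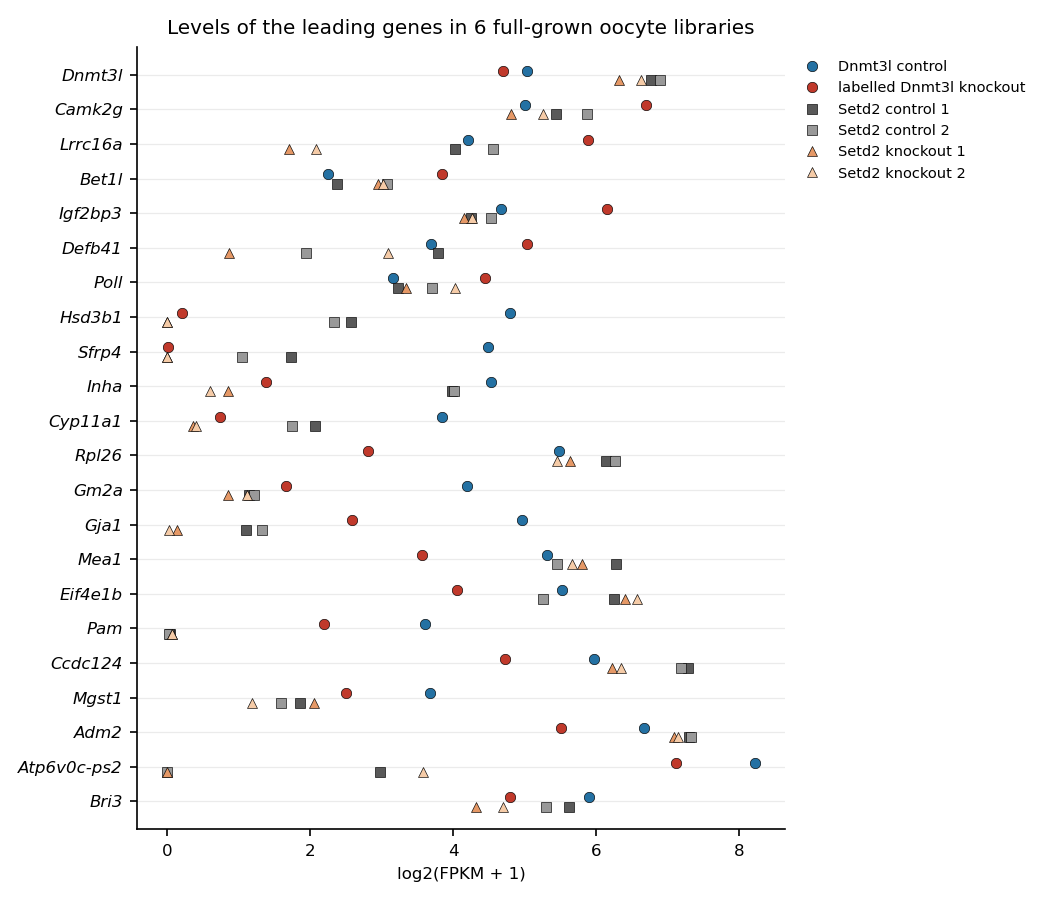
Levels as log2(FPKM + 1) (horizontal axis) of Dnmt3l and of the 6 leading higher and 15 leading lower genes, each in 6 full-grown oocyte libraries (circles, the Dnmt3l pair; squares, Setd2 controls; triangles, Setd2 knockouts). The red circles of Lrrc16a and Igf2bp3 lie right of all other libraries, and the blue control circles of Hsd3b1, Sfrp4 and Cyp11a1 lie right of all others.

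Counted over all genes, the library labelled knockout lay at least 2-fold beyond the Dnmt3l control and both Setd2 controls in 25 of 4530 genes (0.552%), 13 above and 12 below. The same count for the Dnmt3l control against the library labelled knockout and both Setd2 controls was 14 (0.309%), 12 above and 2 below. The 2 below became 6 without Setd2 control replicate 1 and 4 without replicate 2. Of the 30 higher genes, the library labelled knockout stood apart in 13, the control in 2 and neither in 15. Of the 26 lower genes, the library labelled knockout stood apart in 12, the control in 12 and neither in 5, with genes such as Hsd3b1 counted under both. The 2 Setd2 control replicates differed from each other by at least as much as the pair in 2 of the 30 and 3 of the 26 genes. These genes were chosen for a 2-fold difference in the pair, so a smaller replicate difference in most of them follows from the choice. The count therefore does not set the pair apart from the replicates. Levels were set across separately normalized tables here, and the rank correlation between a Dnmt3l and a Setd2 library was 0.744 to 0.807 over 5671 genes, against 0.975 within the pair.

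Imprinted genes controlled by maternally methylated regions, the best-known targets of DNMT3L in the oocyte, had no member past 2-fold among the 8 of 55 with at least 10 FPKM. With 1.24% of all genes past 2-fold, none of 8 is near the background. Their median log2 difference was 0.09, with a range from -0.29 to 0.44, against -0.01 over all 4530 genes and 0.12 for the list between the Setd2 control replicates. Mest was 111 FPKM in the control and 149 in the library labelled knockout, with 124 and 96.6 in the Setd2 controls. Phlda2, a growth-restraining placental gene, was 18.8 and 25.9 FPKM, with 30.0 and 34.9 in the Setd2 controls. Ube3a, a ubiquitin ligase gene, was 11.9 and 9.52 FPKM, with 8.07 and 8.73. For Mest the 2 values of the pair were about as far apart as the 2 Setd2 controls, and for Phlda2 both lay below them. Blcap (56.4 and 67.6 FPKM), Gnas, the stimulatory G protein gene (60.1 and 62.4), H13, a signal peptide peptidase gene (83.5 and 91.4), Commd1, a copper metabolism gene (258 and 239), and Gpr1, which the list for paternally methylated regions holds too (221 and 201), were closer still.

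Another 21 genes of that list were between 1 and 10 FPKM and 26 under 1 FPKM in both libraries. Snrpn, a splicing protein gene, was 3.07 and 6.44 FPKM, with 25.9 and 19.7 in the Setd2 controls. Snurf, encoded by the same bicistronic transcript, was 1.75 and 0.000961 FPKM. How reads were divided between the 2 symbols was not tested, so neither value can be read alone. Cd81, a tetraspanin gene, was 6.22 and 2.30 FPKM (-1.13), with 1.99 and 2.69 in the Setd2 controls, so the control was the high library. Igf2r, the receptor gene that clears IGF2, was 6.84 and 7.26 FPKM and its antisense transcript Airn 2.50 and 2.45, and reads of the 2 strands could not be separated. Peg3, a zinc finger gene, was under 1 FPKM in all 6 libraries, as was Plagl1, a growth regulator gene. All 23 measured genes of the list imprinted by maternal H3K27me3 were under 1 FPKM in the pair.

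**Figure D4:**
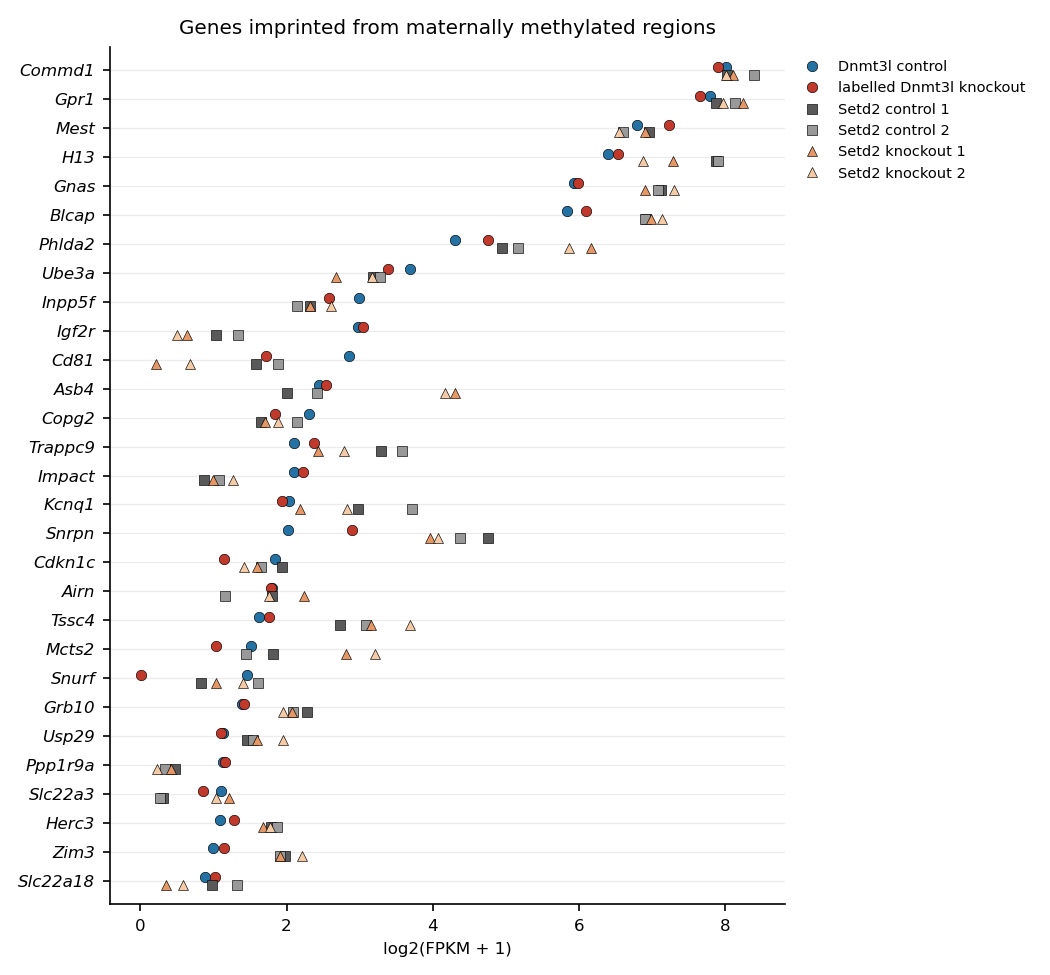
Levels as log2(FPKM + 1) (horizontal axis) of the genes imprinted from maternally methylated regions that had at least 1 FPKM in either library of the pair, in 6 full-grown oocyte libraries. The blue and red circles of the pair lie close together for Mest (111 and 149 FPKM), Gnas (60.1 and 62.4) and Commd1 (258 and 239), and apart for Snurf and Cd81.

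The DNA methylation genes themselves had no member past 2-fold among the 10 with at least 10 FPKM, and at 1.24% of all genes a list of this size need not hold any. Their median log2 difference was -0.25 and 8 of the 10 lay below 0, beside 2350 of all 4530 genes. The list's median between the Setd2 control replicates was 0.00. Dnmt1, the maintenance methyltransferase gene, was 88.8 FPKM in the control and 61.4 under the knockout label (-0.52), against 111 and 149 in the Setd2 controls. Dnmt3a, the catalytic partner of DNMT3L, was 13.6 and 11.5 FPKM (-0.23), against 13.2 and 13.1. Uhrf1, which recruits DNMT1, was 149 and 123 FPKM (-0.27), and Tet3, which oxidizes methylcytosine, 55.4 and 49.8 (-0.15). The 2 largest differences of the list were in Trim28 (14.1 and 9.33 FPKM, -0.55) and Dnmt1, and Zfp57, which with TRIM28 guards imprints after fertilization, was 655 and 481 FPKM (-0.45). Kdm1b, the H3K4 demethylase needed for many maternal imprints, was 14.7 and 17.6 FPKM (0.25). Dnmt3b was 0.681 and 1.42 FPKM, under the limit of the rule.

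Other chromatin lists likewise held no gene past 2-fold. The medians were -0.06 over 7 H3K36 methylation genes, -0.24 over 5 H3K4 methylation genes, -0.13 over 13 Polycomb subunits and 0.10 over 8 H3K9 methylation and heterochromatin genes. Nsd1, the H3K36 dimethyltransferase gene, was 12.7 FPKM in both libraries, and Psip1, a reader of H3K36 methylation, 30.8 and 31.3. Mtf2, a Polycomb-like protein gene, was 11.2 and 19.4 FPKM (0.74), with 10.6 and 10.8 in the Setd2 controls. Ezh2, the H3K27 methyltransferase gene, was 70.5 and 106 FPKM (0.59), with 69.8 and 66.8. In both genes the library labelled knockout was the highest of the 4 and the 3 control values lay close together, although the differences stayed under 2-fold.

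Germline genes whose CpG-rich promoters are methylated in somatic cells were spread evenly around 0, with 12 of 24 above it, a median of 0.05 and 1 member past 2-fold. That member was Xlr5c, an X-linked gene of a multicopy family whose copies can share reads, at 7.91 and 17.9 FPKM (1.09), against 13.3 and 12.6 in the Setd2 controls. The Dnmt3l control was the lowest of these 4 libraries. Among the 10 piRNA and transposon silencing genes with at least 10 FPKM all 10 lay below 0, beside 2350 of all 4530 genes, with a median of -0.12. Members under 10 FPKM lay on both sides of 0, such as Fkbp6 at 0.82 and Dicer1 at -0.25. Tdrkh, a mitochondrial tudor protein gene of piRNA processing, was past 2-fold lower at 23 and 11 FPKM (-1.0), against 21.2 and 24.3. Mael, a piRNA pathway gene, was 46.1 and 36.5 FPKM, and Tex19.1 60.3 in both.

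Genes of oocyte growth and of maternal function differed by less than 2-fold between the libraries. None of 36 oocyte growth genes and none of 36 maternal-effect genes passed 2-fold, where 1.24% of all genes did, with medians of -0.02 and 0.02. Gdf9, the growth factor through which the oocyte acts on granulosa cells, was 2095 and 3175 FPKM (0.60), with 4918 and 4876 in the Setd2 controls. Zp3, a zona pellucida gene, was 3538 and 3685 FPKM, and Bmp15, the partner of GDF9, 1171 and 930. Of 25 genes for storage and decay of maternal RNA, 1 passed 2-fold, which was Igf2bp3, and the median was -0.17. No member passed 2-fold among 34 meiosis and cell cycle genes (median 0.18), 18 DNA repair genes (0.09), 27 heat shock genes (0.13), 32 proteasome genes (-0.02) or 52 Zfp zinc finger genes (0.01). The same held for 76 oxidative phosphorylation genes (-0.08), 12 replication-dependent histones (0.07), 9 pluripotency factors (0.07), 8 p53 and apoptosis genes (0.10) and 5 genes of the 2-cell stage (-0.07).

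Both the Fbxw and the Nlrp list lay on 1 side of 0 without passing 2-fold. All 13 genes of the oocyte Fbxw cluster were slightly higher under the knockout label, with a median of 0.18 and a range from 0.06 to 0.35, and the same 13 genes had a median of -0.25 between the Setd2 control replicates. All 10 oocyte Nlrp genes with at least 10 FPKM were also above 0, with a median of 0.28 against -0.16 between the Setd2 control replicates. Nlrp5, the subcortical complex gene MATER, had the largest difference among them at 193 and 328 FPKM (0.76), with 505 and 479 in the Setd2 controls. Members of such clusters can have similar copies, and how the authors' counting divided reads between them is not given in the sources used here. In the other direction 58 of 75 ribosomal protein genes lay below 0, with a median of -0.20, against 0.27 between the Setd2 control replicates, and Rpl26 was the single member past 2-fold. Of all 4530 genes 2180 lay above 0 in the pair and 2350 below. Over all genes the median was -0.01 in the pair and 0.11 between the replicates. Relative to these, the Fbxw list stood at 0.19 in the pair and -0.36 between the replicates, the Nlrp list at 0.29 and -0.27, and the ribosomal list at -0.18 and 0.16. The sign of a replicate difference follows only the numbering of the 2 libraries, so only its size can be compared. By size the replicate shift was larger than that of the pair for the Fbxw list and nearly as large for the Nlrp and ribosomal lists.

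**Figure D5:**
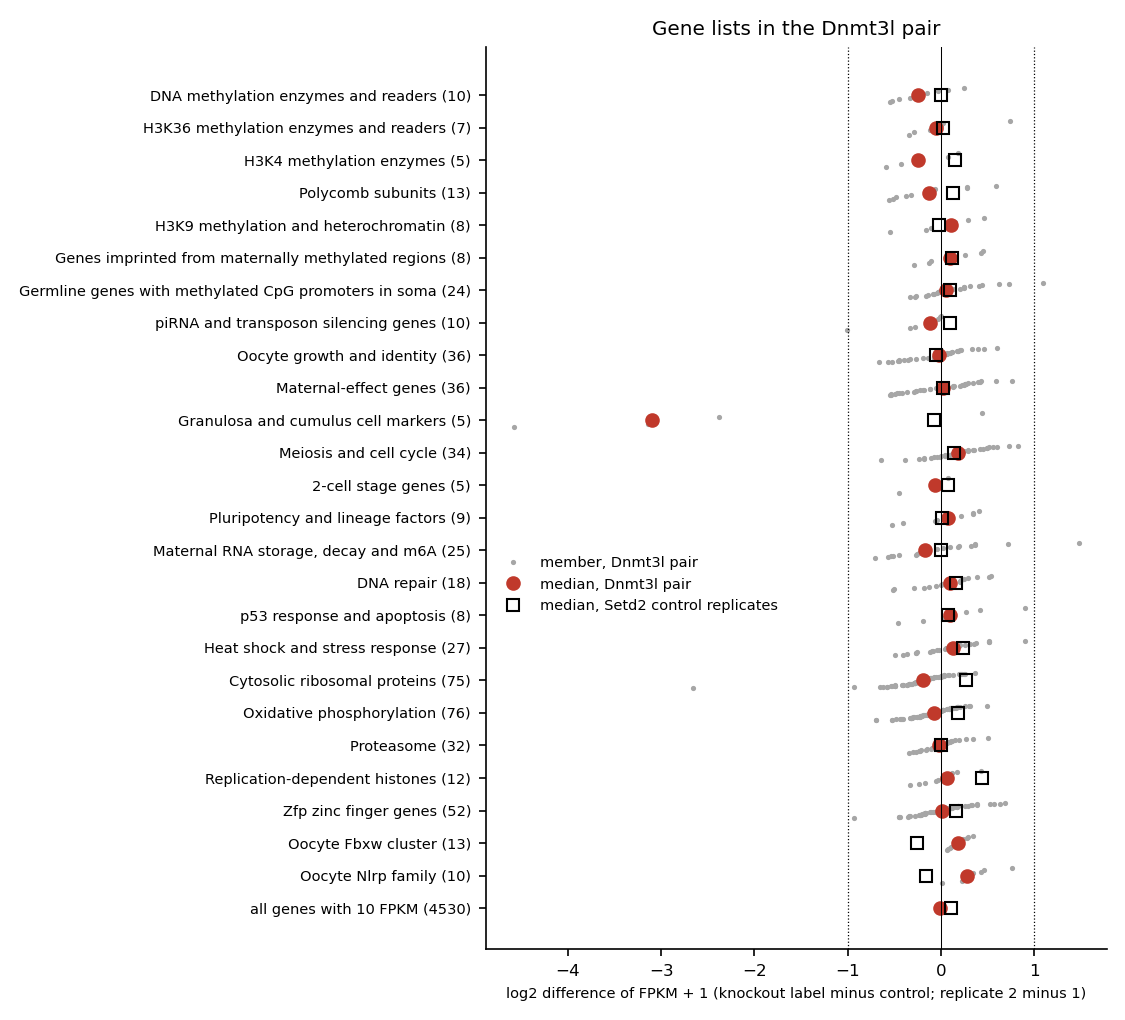
Log2 differences of FPKM + 1 (horizontal axis) for the lists with at least 5 genes at 10 FPKM, where grey points are genes of the Dnmt3l pair, red circles the list medians of the pair and open squares the list medians between the Setd2 control replicates; the number of genes is in parentheses. The granulosa and cumulus median, at -3.09, is beyond a 2-fold difference, but 4 of its 5 genes passed 10 FPKM only through the control, and that list's replicate median rests on 2 genes.

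Lengths of the transcripts differed between the higher and the lower genes. The median transcript length was 2734 nt for 28 of the 30 higher genes, 1278 nt for 25 of the 26 lower genes and 1558 nt for 4237 of all 4530. The part of transcript length, RNA integrity or priming in the differences was not tested.

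The genes of the pair were then set beside the effect of Setd2 deletion, which has 2 libraries in each group and no control in common with the pair. In the limma fit 844 of 12199 genes were called at an adjusted p of 0.05 (6.92%; 247 higher, 2.02%, and 597 lower, 4.89%), with a median log2 difference of -0.19 over all genes, and single-gene differences are given relative to that median. The split turned with scaling, to 372 higher and 304 lower after median ratios and 360 and 251 after quantile normalization, where 4 of the 30 genes below were called lower in place of 6. The limma p-values test the differences before the median was subtracted, such as -2.40 for Lrrc16a, -1.12 for Gja1 and 2.37 for Id3. None of the 30 genes higher under the Dnmt3l knockout label was called higher in Setd2 knockout oocytes, and 6 were called lower, beside 4.89% of all genes. That share is over unlike genes, with 1 FPKM in any 2 of 12 libraries that include zygotes and embryos, whereas the 30 had 10 FPKM in oocytes. With a filter at 5 FPKM 5 of 28 were called lower, beside 574 of 8692 genes. At an unadjusted p of 0.05 in limma 2 of the 30 were higher, and with a replicate block, or with the 4 full-grown oocyte libraries alone, 1 and 2 were called higher. Lrrc16a was 2.27 and 3.24 FPKM in the Setd2 knockouts against 15.3 and 22.6 in their controls (-2.21, limma adjusted p = 0.00219), and Xlr5c 0.563 and 0.374 against 13.3 and 12.6 (-3.06, limma adjusted p = 0.00104). Eif4e3, Psen2 and Psme2, named after their values were seen, were also called lower. These genes were higher under the Dnmt3l knockout label and lower under the Setd2 knockout label, each against its own control.

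Of the 25 lower genes that could be tested, 5 were called lower and 1 higher. The 5 were the granulosa markers Inha (-3.08, limma adjusted p = 1.5e-05), Hsd3b1 (2.59e-05), Cyp11a1 (-1.33, 0.00298) and Gja1 (-0.94, 0.0201) together with Sfrp4 (0.00449), and in both Setd2 knockout libraries Hsd3b1 and Sfrp4 were listed at 0. None of these 5 had 1 FPKM in either Setd2 knockout library of full-grown oocytes, so within this stage they met the filter through the controls, where they are high. Of the 10 granulosa and cumulus markers with at least 1 FPKM in the pair, 8 were lower in both Setd2 knockouts than in both Setd2 controls, as were 46.3% of all 12199 tested genes. Cyp19a1 and Nr5a2 lay the other way, at 23.4 and 19.6 FPKM against 15.4 and 13.6, and 7.02 and 7.08 against 3.89 and 3.52. So did Fshr, under 1 FPKM in the pair, at 9.49 and 8.25 FPKM in the Setd2 knockouts against 0.415 and 0.180 in their controls. The list thus did not fall as a whole in the Setd2 knockouts. Id3, a helix-loop-helix inhibitor gene named after its values were seen, was called higher at 30.4 and 103 FPKM against 6.46 and 15.3 (2.56, limma adjusted p = 0.0476), while in the pair it was 13.1 and 5.93. Id3 was not called with the replicate block, with a pseudocount of 0.1 FPKM, without a filter or without any of the 4 libraries in turn. With 2 libraries a group these counts leaned on single libraries. Fewer of the 30 higher and of the 25 lower genes were called when any 1 of the 4 libraries was left out. Without Setd2 control replicate 1, or without replicate 2, only 21 of the 25 lower genes still met the filter. Inha, Hsd3b1, Cyp11a1 and Sfrp4 did not meet it there, so for these genes the missing calls are missing tests. The calls of Inha, Hsd3b1, Lrrc16a and Xlr5c stood in every alternative fit in which the gene was tested, whereas Gja1 was lost without each of the 4 libraries in turn and Sfrp4 in 1 such fit, and Cyp11a1 was lost with a pseudocount of 0.1 FPKM (limma adjusted p = 0.0586, range over its alternatives 0.00413 to 0.0586). Over 4187 genes the Dnmt3l log2 difference and the Setd2 log2 difference had a Pearson correlation of 0.14 and a Spearman correlation of 0.14, given as a description across genes, which are not replicates.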

How the data were processed

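RNA of 2 full-grown oocyte libraries of the Dnmt3l experiment and 4 of the Setd2 experiment was compared. The libraries followed the Smart-seq2 protocol, per the labels' protocols. The authors deposited FPKM values for 22592 gene symbols, made on mm9 with Cufflinks 2.0.2 and TopHat2 2.0.11 per the submitters' processing notes, which give no role to either. No count of reads was available, so the depth in fragments was estimated from what 1 fragment is worth in 3250 single-transcript genes. An exact 0 may be a failed estimate.

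Differences are of log2(FPKM + 1), which understates those of low genes, and genes at 2-fold or more were counted with no test, as each Dnmt3l group had 1 library. For the Setd2 effect limma 3.58.1 was run under R 4.3.3 (variance trend, all 12 libraries of the table, genes with 1 FPKM in at least 2 libraries, two-sided p adjusted by the Benjamini-Hochberg method). Nothing in the labels says that replicates came from separate animals, so these p-values measure the spread between libraries, which may be technical. An exact test of 2 against 2 libraries cannot go below p = 0.33, so these calls rest on variance shared between genes. On simulated data the fit recovered 22% of 2-fold and 78% of 4-fold changes among 12199 genes, with 9 false calls.

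Named genes are Dnmt3l and Setd2, the 15 largest differences each way, the 10 largest each way also 2-fold beyond both Setd2 controls, up to 4 members of each of 28 lists past 2-fold, and 1 or 2 list members that were not. Genes without an established name were left out of the ranked names, and some genes that the rule names are not reported here. Members, lists and settings were chosen with earlier results of these data known. Promoter windows and CpG counts are from RefSeq (GRCm38.p6), and transcript lengths from GENCODE. Pseudocounts, filters, fold limits, rescaling, the replicate block and leaving out libraries were tried as alternatives, in Python 3.11.15 with pandas 2.3.3. Other libraries of the series were not used for this pair, except those fitted with the Setd2 table.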

Additional observations from a re-analysis of the deposited data

How the results depend on the processing

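With 1 library a group the pair has no error, and its counts depend on where the limits stand. Higher and lower genes past 2-fold numbered 8 and 14 with a pseudocount of 5 FPKM, 88 and 101 with a filter at 1 FPKM or none, 210 and 181 at 1.5-fold and 0 and 7 at 4-fold. A filter at 5 FPKM gave 40 lower genes, and the genes shared with the Setd2 controls, chosen after seeing the data, 14 lower. Between the Setd2 control replicates the counts were 11 and 10, 82 and 61, 240 and 85, and 1 and 2 under the same settings, with 32 lower at 5 FPKM, 21 higher at 20 FPKM, and 17 and 7 over the shared genes. Rescaling by the median ratio or quantile normalization gave 19 higher and 26 lower replicate genes in place of 35 and 18, while the pair had 30 and 20 or 29 and 23 in place of 30 and 26.

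The library labelled knockout stood apart in 4 genes above and 6 below with a pseudocount of 5 FPKM, in 7 below after quantile normalization and in 20 above after median ratios. The Dnmt3l control stood apart in 6 above and 0 below with a pseudocount of 5 FPKM, 0 below under both rescalings, and 4 to 6 below leaving out a Setd2 control. Of 37 named genes none reversed, and 35, 20, 35 and 34 lay past 2-fold with pseudocounts of 0.1 and 5 FPKM, quantile normalization and median ratios.

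In the Setd2 fit the called genes numbered 489 with a pseudocount of 0.1 FPKM, 500 without a filter, 2787 with the 4 full-grown oocyte libraries alone and 43 to 145 leaving out a library, where the lone library is assumed to vary like the other groups. Called higher and lower genes split 372 and 304 after median ratios and 360 and 251 after quantile normalization, where the median was -0.03 and -0.02. Of the 30 higher genes 10 were called with the 4 libraries alone and 2 to 4 leaving out a library. Of the lower genes 3 were called with a pseudocount of 0.1 or a filter at 5 FPKM and 11 with the 4 libraries alone. Leaving out a Setd2 control took Inha, Hsd3b1, Cyp11a1 and Sfrp4 out of the test. With the replicate number as a block 925 genes were called, 7 of the 30 higher genes and 5 of the lower ones. Same-numbered libraries deviated together with a correlation of 0.20 over 10081 genes, and with 2 pairs and no label for a shared day the samples share only a number. No replicate block was possible in the Dnmt3l pair, which has 1 library a group.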

Other observations

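Below the 10 FPKM rule, 3 metabolic and splicing genes, named after their values were seen, were near 0 in 1 library of the pair. Eno1, a glycolytic enolase gene, was 0.000118 FPKM in the control and 4.63 in the library labelled knockout, with 4.93 and 5.43 in the Setd2 controls. Ldha, the lactate dehydrogenase A gene, was 3.28 and 7.96e-05 FPKM, with 0.357 and 4.76 in the Setd2 controls. Sf3a2, a spliceosome subunit gene, was 7.29 and 0.242 FPKM, with 11.4 and 5.26 in the Setd2 controls. Depth was estimated from 3250 single-transcript genes, and the share of values clearly under the worth of 1 fragment was taken over these genes only. Such values made up 15.1% and 14% of their values above 0 in the pair and 2.86% to 4.54% in the Setd2 libraries. The part of such values in the differences of Eno1, Ldha and Sf3a2 was not tested.

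A limit of 2-fold also leaves out some abundant messages, chosen here after their values were seen. Bcl2l1, which encodes the survival protein BCL-X, was 56.1 FPKM in the control and 105 in the library labelled knockout (log2 difference 0.90). Hsp90aa1, an inducible chaperone gene, was 207 and 386 FPKM (0.89). Alkbh5, which removes m6A from RNA, was 701 and 429 FPKM (-0.71). These 3 differences lay outside the middle 95% of the pair, from -0.67 to 0.73. That range leaves out a fixed share of genes by definition, and the 3 were chosen by their values, so their position is no evidence of an effect.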
